A study of Mus musculus with 8 samples.

Results

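Hox genes encode homeodomain transcription factors, and the set examined here was every array probe set whose annotation gave exactly 1 symbol made of Hoxa, Hoxb, Hoxc or Hoxd followed directly by a number. This rule chose 48 of 45101 probe sets, standing for 33 of the 39 Hox genes in the RefSeq gene table. The Hoxa cluster gave 16 probe sets, Hoxb 11, Hoxc 11 and Hoxd 10. The other 6 genes are not described, and 3 probe sets annotated to several Hox symbols were not used. The RNA came from cultured preadipocytes, which can turn into fat cells, of the subcutaneous depot, isolated from day 2 newborn mice of C57BL/6 background. All cells of both groups carried the genotype Dicer lox/lox, in which Cre recombinase can excise part of the gene for Dicer, the RNase that makes mature microRNAs from their hairpins. The Dicer knockout group (4 arrays) had received adenovirus Ad5CMVCre-eGFP, which carries Cre, and the control group (4 arrays) had received Ad5CMVeGFP, both at 750 MOI with 4 µg/mL polybrene. Total RNA was taken 4 days after infection and hybridised to 1 Affymetrix array per sample. No array was of the Cre virus in cells without floxed Dicer, so an effect of Cre or its virus and an effect of losing Dicer cannot be told apart in any difference below. The labels call the samples biological replicates 1 to 4 without naming animals or cultures, so the spread behind each p-value is that of these samples and may be technical.

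In mammals the Hox genes lie in clusters on separate chromosomes, and within a cluster genes with low paralog numbers are switched on nearer the head and those with high numbers nearer the tail. Fibroblasts and fat precursors keep much of this embryonic address in culture, and subcutaneous and visceral fat depots differ in their Hox expression. Polycomb complexes hold silent Hox genes in their repressed state, Trithorax complexes keep active ones on, and retinoic acid induces the low-numbered genes. The clusters also hold microRNA genes, miR-10 and miR-196 among them, whose known targets include Hox messages, which ties the genes to Dicer.

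The mature microRNAs of the clusters are shown because the knockout is meant to remove them, with the seed, bases 2 to 8, in capitals. The sequences are from RefSeq on GRCm38.p6. By gene order, Mir10a lies just upstream of Hoxb4, Mir10b within the span of Hoxd4, Mir196a-1 between Hoxb13 and Hoxb9, Mir196a-2 between Hoxc10 and Hoxc9, Mir196b between Hoxa9 and Hoxa10, and Mir615 within the span of Hoxc5. The array values used here hold no measurement of the mature microRNAs.
miR-10a-5p (chr11:96317186-96317208, plus strand): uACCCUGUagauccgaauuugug
miR-10b-5p (chr2:74726074-74726096, plus strand): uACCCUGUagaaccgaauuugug
miR-196a-5p (chr11:96265187-96265208 and chr15:102973365-102973386, plus strand at both): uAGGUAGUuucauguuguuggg
miR-196b-5p (chr6:52230129-52230150, minus strand): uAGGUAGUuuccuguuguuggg
miR-615-3p (chr15:103014969-103014990, plus strand): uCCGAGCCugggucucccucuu
The miR-10 pair shares the seed ACCCUGU and differs at 1 base, U12A, counted from the 5′ end with the miR-10a base first. The miR-196 pair shares the seed AGGUAGU and differs at 1 base, A12C, with the miR-196a base first.

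Signals are MAS5 intensities in arbitrary units, and the median signal of an array lay between 321.1 and 418.9. Preadipocyte identity was checked with 12 listed stromal genes, of which 9 of the 11 on the array lay above the background limit defined below, and the platelet-derived growth factor receptor Pdgfra read 11906.1 to 21994.1 in knockout and 14573.3 to 22612.8 in control arrays. Of the listed macrophage and leukocyte markers 3 of 10 lay above that limit (Cd68, Csf1r and Cd14) and of endothelial markers 2 of 8 (Kdr and Tek). The keratinocyte and epithelial list had 1 of 8 above it, skeletal muscle 2 of 8, and chondrocytes and bone 3 of the 6 measured. The defining markers Ptprc, Pecam1 and Cdh5 were below it. Whether other cells were present was not tested. The brighter Dicer1 probe set read 1110.1 to 1403.8 in knockout and 1140.7 to 2113.7 in control arrays, and the dimmer one 487.8 to 753.8 in knockout and 391 to 1045.1 in control arrays, so that the groups overlapped in both. Their place relative to the excised part is not known here, so they do not check the deletion.

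The level of each gene is given by its brightest probe set, since probe sets differ in brightness per RNA molecule and a signal of one gene is not a measure against that of another. As a floor, the 43 probe sets of olfactory receptor genes, which are used in the nose, were taken. The 95th percentile of their mean control signals was 440.9 and their median was 147. For scale, the limit lay above the median signal of every array (321.1 to 418.9). Among all probe sets, control means of 400 and 510 stood at percentiles 52.6 and 57.4, on either side of the limit. The Hox count takes the brightest probe set of each gene, so it is not counted alike. A signal under the limit does not show that RNA was absent. In control cells 18 of the 33 Hox genes stood above the limit and 15 did not. They were 5 of 9 Hoxa genes (Hoxa3, Hoxa5, Hoxa9, Hoxa10 and Hoxa11), 5 of 9 Hoxb genes (Hoxb2, Hoxb3, Hoxb4, Hoxb6 and Hoxb9), 6 of 7 Hoxc genes (all but Hoxc5) and 2 of 8 Hoxd genes (Hoxd8 and Hoxd9). In knockout cells, against the same percentile there, 17 genes stood above. With the further requirement that every control array exceed its own limit, 14 genes were left.

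**Figure D1:**
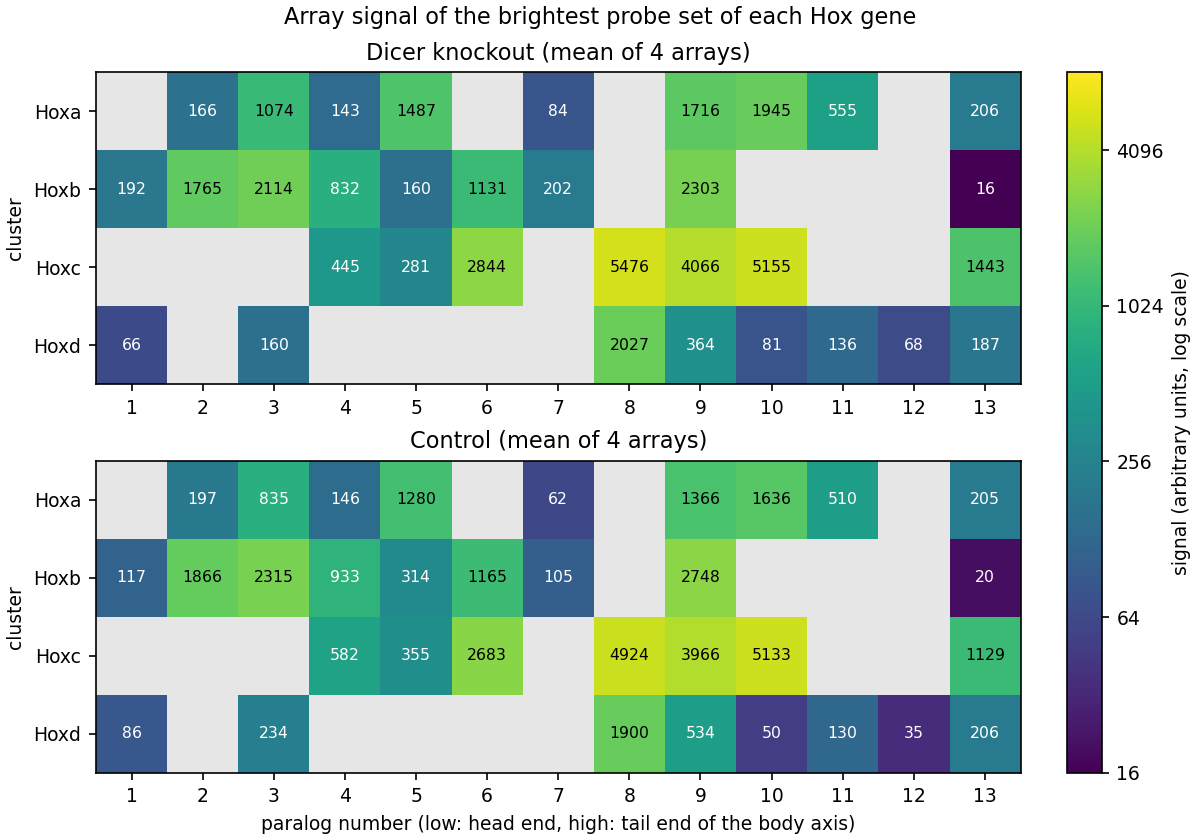
Mean signal of the brightest probe set of each of the 33 Hox genes in Dicer knockout (top) and control cells (bottom), with clusters as rows and paralog numbers as columns, grey where no probe set met the rule, and colour on a log scale of arbitrary units. Paralogs 9 and 10 of the Hoxa and Hoxc clusters lie above the olfactory receptor limit and Hoxd10 to Hoxd13 do not. Each gene has its own probes, so squares are not ranked against each other.

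By position along the clusters, 3 of the 7 measured genes of paralogs 1 to 3 were above the limit, 7 of 12 of paralogs 4 to 8, 6 of 7 of paralogs 9 and 10, and 2 of 7 of paralogs 11 to 13. The genes below it included both ends of the Hoxd cluster. Hoxd10 averaged 81.2 ± 49.0 in knockout and 49.5 ± 29.5 in control cells, and Hoxd13, the last gene of its cluster, 187 ± 136 and 206 ± 87.6 (SD, n = 4 each). Hoxd12 averaged 68.1 ± 67.2 in knockout and 35.3 ± 25.6 in control cells (SD, n = 4 each). Such values carry no order among themselves. Among the high-numbered genes Hoxc13, known for its part in hair and nails, and Hoxa11, a gene of the limb and urogenital tract, stood above the limit, with values given below.

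Hoxc6, Hoxc9 and Hoxc10, genes of the trunk, varied little between arrays by their brightest probe sets. Hoxc10 read 4714, 5628.3, 5523.1 and 4753.6 in knockout replicates 1 to 4, against 5087.3, 5222.1, 4628.2 and 5594.9 in control replicates 1 to 4. Its groups overlapped fully, and the log2 difference, knockout minus control, was 0.0045 with a 95% interval of -0.24 to 0.25 in the unpaired fit. Hoxc9 read 4573.1, 4007.3, 3910.4 and 3772.1 in knockout replicates 1 to 4, against 4688.9, 4353, 3486.9 and 3333.2 in controls. Replicate 1 was highest and replicate 4 lowest in both groups (log2 difference 0.05, 95% interval -0.25 to 0.34). Hoxc6, a gene of the thoracic region, read 2896.1, 2753.9, 2541.8 and 3182.6 in knockout replicates 1 to 4, against 2635.8, 2972.7, 2636.8 and 2487.7 in controls (log2 difference 0.08, 95% interval -0.19 to 0.35). Its groups overlapped, with knockout replicate 4 the highest array. The dimmest tested Hoxc6 probe set varied more, with an SD of 0.49 on the log2 scale over the 8 arrays (log2 difference 0.07, SE 0.30). Hoxb2, a hindbrain gene of the Hoxb cluster, read 2087.7, 1749.5, 1635.2 and 1588.5 in knockout replicates, against 1763.2, 2007.5, 1861.1 and 1830.4 in controls (log2 difference -0.08, 95% interval -0.37 to 0.21). Knockout replicate 1 was above all controls and the other knockout arrays below all of them.

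**Figure D2:**
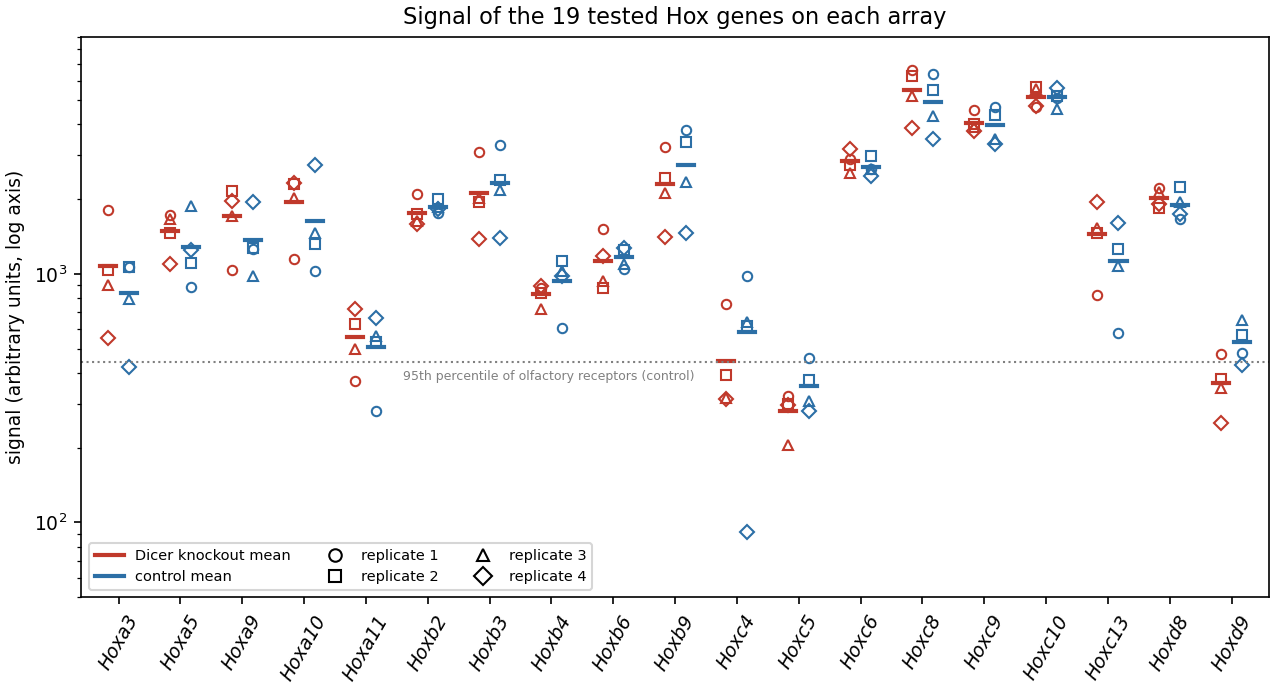
Signal on each of the 8 arrays (log axis, arbitrary units) for the 19 tested Hox genes, with Dicer knockout in red left of control in blue, bars at the mean of 4 arrays and marker shapes for replicate numbers. The groups overlap for every gene, and the replicate 1 circles of Hoxb3, Hoxb9 and Hoxc8 stand at the top in both groups and those of Hoxa10, Hoxa11 and Hoxc13 at the bottom.

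The comparison of knockout with control asks whether cells given the Cre virus changed their Hox expression. No Hox gene passed the test. Of the 48 probe sets 28, standing for 19 genes, passed the filter on low values and entered limma's fit over 27022 probe sets. Of these 28, 0 had an adjusted p under 0.05 in the unpaired fit. The count was also 0 when same-numbered replicates were taken as pairs, the paired fit. Over all tested probe sets the percentages were 0.0037% (1 probe set, of Hmga2) and 0.0481% (13 probe sets). At an unadjusted p under 0.05 the unpaired fit had 0 Hox probe sets (3.77% of all tested) and the paired fit had 2 (9.14% of all tested). The smallest adjusted p of a Hox probe set was 0.999 unpaired and 0.427 paired. In 0 of 28 did the groups fail to overlap, against 2.46% of all tested probe sets, and in 5 the log2 difference had the same sign in all 4 pairs, or 17.9% against 16.9% of all tested.

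Over the 19 genes the median log2 difference was 0.05, with 11 above 0 and 8 below, beside a median of -0.0018 over all 13256 tested genes. The median size without regard to sign was 0.14 for the Hox genes and 0.12 for all tested genes. The 4 pairs gave Hox medians of 0.132, -0.117, -0.100 and 0.00855. By their brightest probe sets all 5 tested Hoxa genes had differences above 0 (median 0.28) and all 5 tested Hoxb genes differences below 0 (median -0.12), also after median centring and after quantile normalization. Hoxc had 5 of 7 above 0, or 4 of 7 after median centring, and Hoxd 1 of 2. No member of any cluster passed on its own, and whether the clusters differ was not tested. Of the 7 genes with several tested probe sets, 3 (Hoxa3, Hoxa9 and Hoxd8) had probe sets on both sides of 0.

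**Figure D3:**
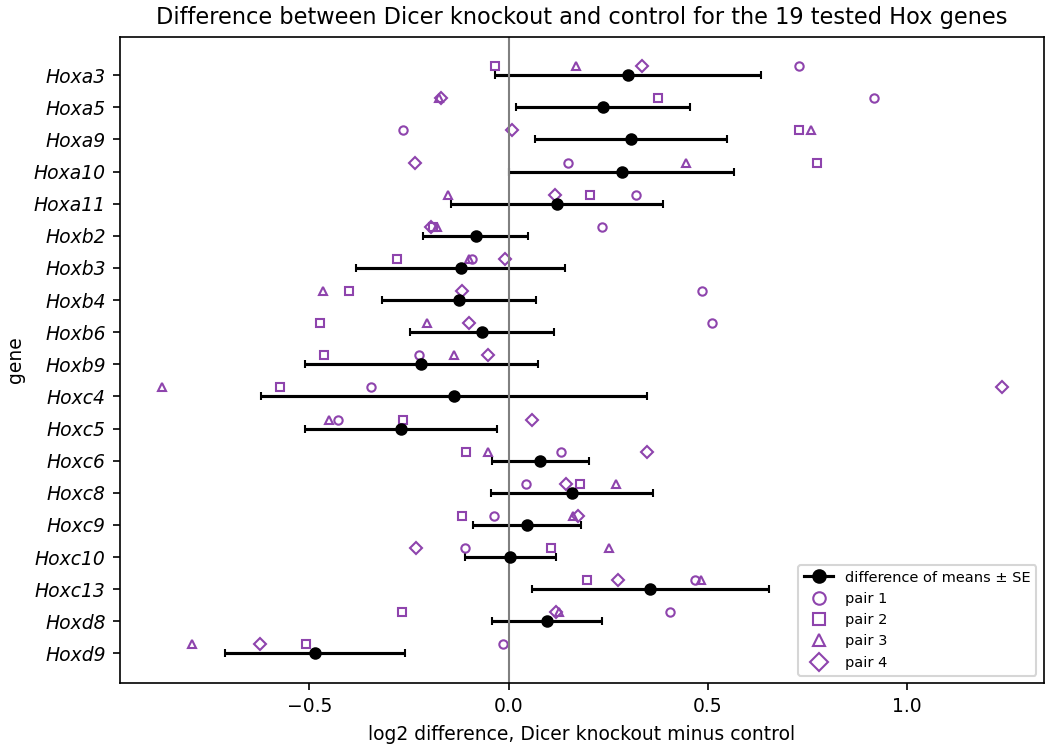
Log2 difference, Dicer knockout minus control, for the 19 tested Hox genes, with black points for the difference of the means ± SE of the unpaired fit (n = 4 each) and open purple symbols for the 4 replicate pairs. The Hoxa points lie right of 0 and the Hoxb points left of it; Hoxd9 has the largest difference, -0.49.

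Hoxd9, a gene of the posterior trunk and limb, had the smallest unadjusted p of the unpaired fit. It read 475.9, 379.5, 346.6 and 252.2 in knockout replicates 1 to 4, against 481, 570.4, 655.2 and 428.4 in control replicates 1 to 4. The groups overlapped because knockout replicate 1 was above control replicate 4, and the other knockout arrays were below all controls. The log2 difference was -0.49 (SE 0.23, 95% interval -0.98 to 0.0065, limma unadjusted p = 0.0527, adjusted p = 0.999; paired unadjusted p = 0.0472, paired adjusted p = 0.541). All 4 pairs were below 0, with -0.0133 in pair 1. The knockout mean of 364 ± 92.3 lay under the olfactory receptor limit and the control mean of 534 ± 99.96 over it (SD, n = 4 each), so the gene was dim in both groups.

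Hoxc13 had the smallest unadjusted p of the paired fit. It read 825.7, 1460.5, 1529.6 and 1954.6 in knockout replicates 1 to 4, against 577.1, 1264.4, 1073.1 and 1602.2 in controls. Each knockout array was above its same-numbered control, by log2 differences of 0.467, 0.197, 0.484 and 0.275, while both groups spread over a wider range than this. The log2 difference was 0.36 (SE 0.30 unpaired and 0.13 paired; limma paired unadjusted p = 0.0184, paired adjusted p = 0.427). It was 0.0872 without control replicate 1 and 0.587 without knockout replicate 1 in the unpaired fit.

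The remaining genes of the 8 smallest unpaired p-values were Hoxa9, Hoxc5, Hoxa5, Hoxb3, Hoxa10 and Hoxa3. Hoxa9, a posterior gene also known in blood progenitors, read 1035.7, 2163.6, 1707.3 and 1958.9 in knockout replicates 1 to 4, against 1260.5, 1277.4, 978.5 and 1946.9 in controls. Pairs 2 and 3 lay far above 0 (0.728 and 0.760), pair 4 was at 0.00855 and pair 1 below 0 (-0.266). Its log2 difference was 0.31 (SE 0.24, limma adjusted p = 0.999), and the other Hoxa9 probe set gave -0.04 (SE 0.20). The 0.31 became 0.1703 without control replicate 3, 0.184 without knockout replicate 2, 0.484 without control replicate 4 and 0.522 without knockout replicate 1. Hoxa10, its neighbour and a gene of the lumbar region and uterus, read 1153.2, 2297.3, 2018.7 and 2311.8 in knockout replicates, against 1032.3, 1313.8, 1462.5 and 2733.4 in controls. Replicate 1 was lowest and replicate 4 highest in both groups (log2 difference 0.28, SE 0.28). The difference was 0.105 without control replicate 1, 0.187 without knockout replicate 4, 0.507 without knockout replicate 1 and 0.553 without control replicate 4. Hoxc5 read 321.3, 299, 205.3 and 296.7 in knockout replicates, against 457.3, 374, 307.2 and 281.8 in controls (log2 difference -0.27, SE 0.24), with both means under the olfactory receptor limit. A dimmer Hoxb3 probe set read 598.9, 341.8, 596.5 and 489.8 in knockout replicates, against 831.1, 685.9, 805.2 and 318.2 in controls (log2 difference -0.29, SE 0.28). Both genes overlapped between the groups. With an array left out, this Hoxb3 value ran from -0.139 without knockout replicate 2 to -0.569 without control replicate 4, and Hoxc5 from -0.160 without knockout replicate 3 to -0.355 without control replicate 4.

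The width of the intervals shows what 4 arrays a group could resolve. In the unpaired fit the 95% interval lay within a 2-fold change in either direction for 16 of the 19 genes and within a 1.5-fold change for 7. The widest was that of Hoxc4, whose control replicate 4 read 91.5 beside 977.6, 617.1 and 642 in control replicates 1 to 3, and whose knockout replicates 1 to 4 read 754.4, 390.8, 318.3 and 315. Its log2 difference was -0.14 (SE 0.48), and its pair 4 stood at 1.24 while the other pairs lay between -0.870 and -0.345.

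Hox messages known as targets of the cluster microRNAs were described as lists chosen from general knowledge. Of 8 genes known as miR-196 targets 5 were tested (Hoxa5, Hoxa9, Hoxb6, Hoxc8 and Hoxd8), with 4 above 0 and a median log2 difference of 0.16. Of 5 genes known as miR-10 targets 2 were tested, Hoxa3 above 0 and Hoxb3 below it. None of the 7 passed limma's test in the unpaired or paired fit, and 0 had an unadjusted p under 0.05 in either. Hoxc8, the trunk gene whose pairing with miR-196 is a classic case, read 6592.6, 6243, 5211.9 and 3857.6 in knockout replicates 1 to 4, against 6390.3, 5510.6, 4314.4 and 3481.9 in control replicates 1 to 4. Each knockout array was above its same-numbered control by a small step, with log2 differences of 0.0445 to 0.269, and the spread between replicates of a group was larger. The log2 difference was 0.16 (95% interval -0.29 to 0.60 unpaired and -0.02 to 0.34 paired; limma paired adjusted p = 0.619), and it was 0.00748 without control replicate 4. Hoxd8, also a trunk gene, read 2215.6, 1850.2, 2139.9 and 1903.9 in knockout replicates, against 1656.2, 2242.4, 1955.4 and 1746.5 in controls (log2 difference 0.10, SE 0.14), and its other tested probe set gave -0.14 (SE 0.20). Hoxb6 read 1521.3, 878.4, 940.8 and 1183.6 in knockout replicates, against 1046.3, 1246.8, 1096.2 and 1272.3 in controls (log2 difference -0.07, SE 0.18), and its sign turned when knockout replicate 2 (0.0366) or knockout replicate 3 (0.00610) was left out. Both overlapped between the groups.

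The differences of Hoxa5 and Hoxa3 also depended on single arrays. Hoxa5, a gene of the lung and neck region, read 1732.5, 1455.8, 1659.7 and 1098.8 in knockout replicates 1 to 4, against 883.2, 1106.9, 1883.7 and 1245.4 in controls (log2 difference 0.24, SE 0.22). Pairs 1 and 2 were above 0 and pairs 3 and 4 below, and the difference was 0.0863 without control replicate 1. Hoxa3, a gene of the throat arches and neck, read 1810.7, 1034.7, 899.2 and 550.3 in knockout replicates, against 1063.8, 1061.8, 792.4 and 421 in controls (log2 difference 0.30, SE 0.33). The difference was 0.0229 without knockout replicate 1. Hoxb3 read 3105.8, 1949.3, 2018.1 and 1384.5 in knockout replicates 1 to 4, against 3314, 2384.2, 2168.3 and 1394.9 in controls. All 4 of its pairs were below 0, by 0.010 to 0.281 (log2 difference -0.12; SE 0.26 unpaired and 0.11 paired). In the unpaired fit its sign turned without control replicate 1 (0.0680) or knockout replicate 4 (0.0558).

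Some Hox genes differed more between replicate numbers than between the groups. For Hoxb9, a gene of the thoracic and lumbar region, knockout replicates 1 to 4 read 3248.9, 2434.7, 2116.8 and 1411.8, against 3808, 3387.4, 2333.3 and 1464.8 in control replicates 1 to 4. Replicate 1 was highest and replicate 4 lowest in both groups, and by their brightest probe sets the same held for Hoxa3, Hoxb3, Hoxc4, Hoxc8 and Hoxc9. Its log2 difference between the groups was -0.22 (SE 0.29 unpaired and 0.11 paired, limma paired adjusted p = 0.591), below 0 in all 4 pairs, and ran from -0.482 without control replicate 4 to -0.0124 without knockout replicate 4. The reverse, with replicate 4 highest and replicate 1 lowest in both groups, held for Hoxa10, Hoxa11 and Hoxc13. Hoxa11 read 369.2, 626, 499.6 and 725.1 in knockout replicates, against 281.4, 533.4, 563.6 and 662.7 in controls. By brightest probe sets the first pattern thus held for 6 of 19 Hox genes (31.6%), against 4.85% of all tested genes. The second held for 3 of 19 (15.8%), against 4.68%. Over all 28 tested Hox probe sets the counts were also 6 and 3, against 4.10% and 3.82% of all tested probe sets. Other tested Hoxa3 probe sets differed between replicates 1 and 4 by 0.28 and -0.04 in knockout and -0.80 and 0.03 in control cells (log2). The dimmer Hoxb3 probe set was lowest in replicate 2 among knockout arrays. Counted only by whether replicate 1 was above replicate 4 in both groups, 8 of 19 Hox genes did so (42.1%, against 32.6% of all tested genes), and in 6 replicate 4 was above replicate 1 in both (31.6%, against 37.3%), which is closer to the array as a whole. The pattern was chosen after the values were seen, Hox genes of a cluster are not independent, and no test was made of it. After each array was centred on its median, 3 and 2 Hox genes held the patterns (all tested genes 3.54% and 2.78%). After quantile normalization 5 and 3 did.

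By brightest probe sets, the first pattern held genes of paralogs 3 to 9, and the second genes of paralogs 10 to 13. The log2 difference between replicates 1 and 4 was 1.16 in knockout and 1.34 in control cells for Hoxb9, 1.12 and 1.21 for Hoxb3, and 1.60 and 1.20 for Hoxa3. It was -0.96 in knockout and -1.34 in control cells for Hoxa10, -0.85 and -1.05 for Hoxa11, and -1.17 and -1.37 for Hoxc13. Paralog number did not sort every gene. Hoxa9 ran opposite to Hoxb9, at -0.87 in knockout and -0.60 in control cells. Hoxb4 differed by -0.03 in knockout and -0.63 in control cells, and Hoxa5 by 0.62 and -0.46. Hoxc10 differed by -0.01 in knockout and -0.14 in control cells and Hoxb2 by 0.38 and -0.05. The labels do not say what a replicate number stands for.

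**Figure D4:**
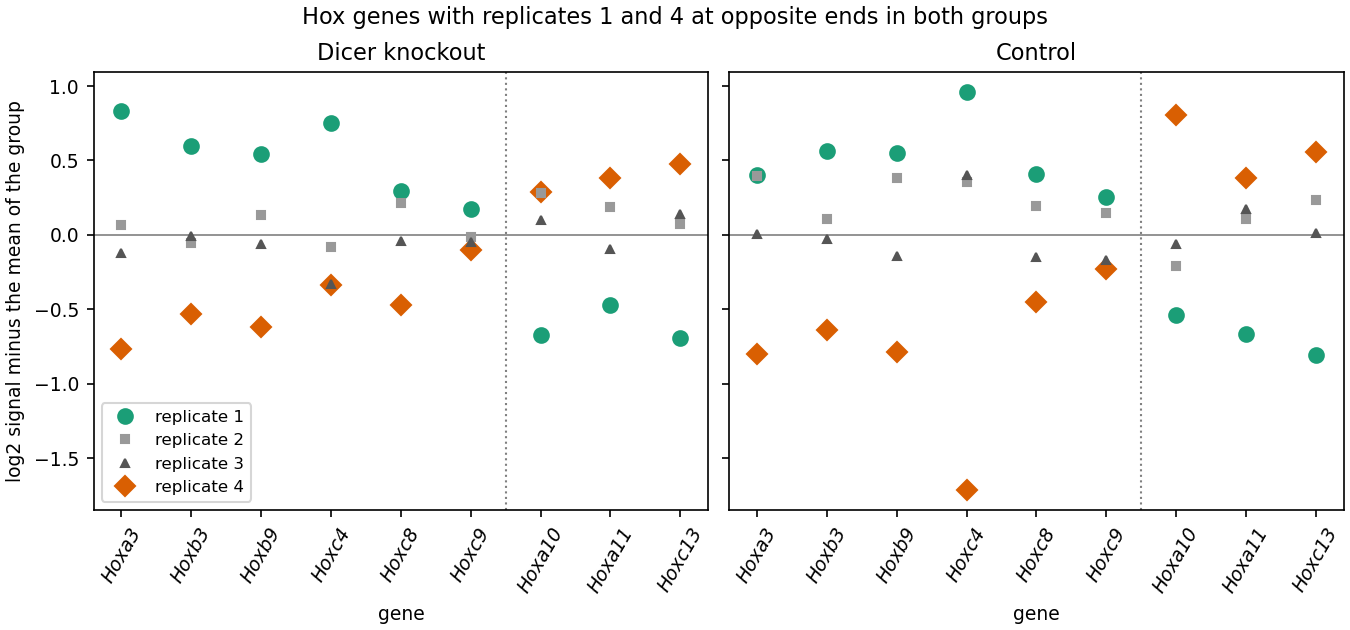
Log2 signal of each array minus the mean of its group for the 9 Hox genes with replicates 1 and 4 at opposite ends in both groups, Dicer knockout left and control right, with a dotted line between the 6 genes that are highest in replicate 1 and the 3 that are highest in replicate 4. Replicate 1 (green circles) and replicate 4 (orange diamonds) exchange places across the dotted line in both panels because the genes were chosen and sorted by this pattern.

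The replicate number held a median of 53.3% of the sum of squares of a Hox probe set and the group 6.25%, beside 56.4% and 6.80% over all tested probe sets. With no effect of either, degrees of freedom alone give 42.9% to the replicate number and 14.3% to the group. With these settings the Hox medians are close to those of the array as a whole. Among the upper 40% of probe sets the replicate share was 48.0% for Hox and 61.2% for all. After median centring it was 61.1% for Hox and 54.5% for all. The share of the replicate number passed 80% in 7 of the 19 genes, against 20.9% of all tested genes, led by Hoxb3 at 96.5%, Hoxc8 at 92.4% and Hoxb9 at 92.4%. It was 24.0% for Hoxc10 and 20.8% for Hoxd8. For Hoxc6 it was 23.1% by the brightest probe set and 87.5% by the next brightest. Hoxd9 had 31.3% by replicate number and 50.5% by group. The same replicate number was highest in both groups for 12 of 28 Hox probe sets (42.9%, against 38.9% of all tested) and lowest for 13 (46.4%, against 38.3%). The median SD over the 8 arrays was 0.36 on the log2 scale for the 19 Hox genes and 0.24 for all tested genes.

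A list of markers of another cell type was also lowest in replicate 1 and highest in replicate 4 in its summed level. The summed signal of the 6 measured Schwann and neural markers was 2933, 5753, 6421 and 8264 in knockout replicates 1 to 4, against 3206, 7157, 7894 and 11590 in control replicates 1 to 4. Ngfr, a neurotrophin receptor, made up most of the sum in replicate 4 and read 1177.8 and 5460.2 in knockout replicates 1 and 4, against 1093.2 and 8603.4 in control replicates 1 and 4. Sox10, the defining Schwann cell factor, read 472 and 428 in knockout replicates 1 and 4, against 448.5 and 402.5 in control replicates 1 and 4, and so did not follow the sum. Of this list 3 of 6 lay above the olfactory receptor limit, and Foxd3, Tubb3 and Elavl4 were below it. Part of this was seen in other lists. Endothelial markers summed to 2223 and 2760 in knockout replicates 1 and 4, against 1892 and 2691 in controls. Skeletal muscle markers summed to 2909 and 4072, against 2028 and 2695. Both were lowest in replicate 1 in both groups, but highest in replicate 3 among controls. The macrophage and leukocyte sum was highest in replicate 4 in both groups (4455 and 4774). The summed keratinocyte and epithelial markers did not follow the replicate number, at 3942 and 3012 in knockout replicates 1 and 4, against 2476 and 2771 in control replicates 1 and 4. Dlk1, the preadipocyte factor, was chosen after its values were seen and ran the other way. It read 60140.3 and 15603.5 in knockout replicates 1 and 4, against 72944.1 and 26166.8 in controls. Other genes of the stromal list ran in either direction between replicates 1 and 4. The stromal sum was highest in replicate 3 in both groups (312034 in knockout and 324523 in control cells). It was 289246 and 247919 in knockout replicates 1 and 4, against 307879 and 292960 in controls. Chondrocyte and bone markers summed to 5012.9 and 3079.5 in knockout replicates 1 and 4, against 3883.3 and 4108.8 in controls. The part of these markers in the Hox values was not tested. A different share of cells and a different level per cell cannot be told apart in such bulk RNA.

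The promoters of 3 members on which these results turn are shown, each as the 250 bases before the RefSeq start on GRCm38.p6, with every CG pair in capitals since Hox promoters lie in stretches rich in CG where Polycomb and Trithorax complexes act. Hoxa3 and Hoxa11 lie in the same cluster and by their brightest probe sets had their high replicates at opposite ends. Hoxd9 had the largest difference between the groups.
Hoxa3 (chr6:52213068-52213317, minus strand): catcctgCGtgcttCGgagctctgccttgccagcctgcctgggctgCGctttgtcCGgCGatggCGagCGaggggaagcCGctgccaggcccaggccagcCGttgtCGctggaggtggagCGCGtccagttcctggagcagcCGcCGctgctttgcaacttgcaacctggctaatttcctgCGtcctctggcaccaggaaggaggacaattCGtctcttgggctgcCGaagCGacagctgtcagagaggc
Hoxa11 (chr6:52245811-52246060, minus strand): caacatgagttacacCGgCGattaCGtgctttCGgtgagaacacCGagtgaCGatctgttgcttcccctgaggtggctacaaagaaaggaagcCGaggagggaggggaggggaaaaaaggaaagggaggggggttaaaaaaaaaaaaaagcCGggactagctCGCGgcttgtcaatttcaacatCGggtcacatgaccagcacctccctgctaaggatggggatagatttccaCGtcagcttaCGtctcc
Hoxd9 (chr2:74697513-74697762, plus strand): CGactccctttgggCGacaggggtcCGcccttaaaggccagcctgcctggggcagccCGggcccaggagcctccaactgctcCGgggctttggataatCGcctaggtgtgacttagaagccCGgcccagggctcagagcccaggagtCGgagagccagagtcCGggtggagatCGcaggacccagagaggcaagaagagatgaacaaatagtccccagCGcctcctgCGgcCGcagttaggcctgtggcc
These held 18, 13 and 13 CG pairs. The median was 12.5 over the 24 Hox promoters in the RefSeq table, which stand for 22 genes, and 6 over all 32851 promoters. Promoters of Hox genes above and below the olfactory receptor limit had medians of 13 and 12. These 10 and 11 promoters stand for only 9 of the 18 genes above the limit and 10 of the 15 below it. Hoxb4 and Hoxc4 are the only Hoxb and Hoxc genes among those above it, so the bright genes of these clusters are missing. On both strands, TGATNNAT, a form bound by Hox proteins with their Pbx partners, was in 0 of 10 promoters of genes above the limit and 3 of 11 of genes below it, against 7.68% of all promoters. TTTATG, the core bound by Cdx factors, was likewise in 0 of 10 and 3 of 11, against 10.8%. TATAAA, the TATA box, was in 1 of 10 and 1 of 11, against 12.4%. Over all 24 Hox promoters the motifs were in 4, 5 and 4, in the same order. With so few promoters these counts do not set the genes above the limit apart from those below it. No overlap between the motifs was taken into account, and a match describes letters only.

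Lists of genes around the Hox genes gave no call either. At an unadjusted p under 0.05 in limma's unpaired fit, 1 of 10 TALE, 0 of 28 Polycomb and 0 of 15 Trithorax genes were counted. The retinoic acid and Cdx list had 3 of 11 and the other positional regulators 4 of 30, against 3.77% of all tested probe sets. In the paired fit the counts higher and lower were, in that order, 1 and 0, 2 and 3, 0 and 0, 1 and 3, and 3 and 3. Of all tested probe sets 9.14% were counted there. The TALE class of homeodomain proteins includes partners that bind DNA with Hox proteins, and the list also holds Tgif1 and Tgif2, which are not counted as such partners. Of this class 10 were tested, 3 were above 0, the median log2 difference was -0.05 and 0 passed limma's test in either fit. Pbx3, one of these partners, had the smallest unadjusted p. It read 6304.5, 7437.5, 7360.8 and 5947 in knockout replicates 1 to 4, against 5333.1, 4932.7, 5807.7 and 4953.1 in control replicates 1 to 4, so all knockout arrays were above all controls. The log2 difference was 0.36 (SE 0.12, limma unadjusted p = 0.00979, adjusted p = 0.999; paired adjusted p = 0.197). The next was Tgif1, at -0.14 (SE 0.16).

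Of 28 tested Polycomb genes 16 were above 0, with a median of 0.03, and 0 passed in either fit. Phf1, a Polycomb accessory protein, had a log2 difference of 0.34 (SE 0.16), and Phc3, a subunit of the ring-finger complex, -0.34 (SE 0.16). Of 15 tested Trithorax activators and H3K27 demethylases 5 were above 0, with a median of -0.04, and 0 passed in either fit. Dot1l, a histone H3 methyltransferase, and Kdm6b, a demethylase that removes the Polycomb mark, gave 0.17 (SE 0.15) and -0.18 (SE 0.17).

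In the retinoic acid pathway and its Cdx neighbours 11 of 21 listed genes were tested, 4 were above 0, the median was -0.02 and 0 passed in either fit. Cdx1, Cdx2 and Cdx4 were below the olfactory receptor limit. Dhrs3, an enzyme that turns retinal back into retinol, read 401.6, 378.5, 450.4 and 656.9 in knockout replicates 1 to 4, against 636.6, 845.4, 895.9 and 711.6 in controls (log2 difference -0.65, SE 0.20, limma adjusted p = 0.999). Cyp26b1, which degrades retinoic acid, read 702.1, 325.6, 339.4 and 354.4 in knockout replicates, against 333.2, 135.5, 94.8 and 139.1 in controls (log2 difference 1.04, SE 0.34, limma adjusted p = 0.999; paired adjusted p = 0.210). The groups overlapped for both genes in 1 array, and the Cyp26b1 means of both groups were under the olfactory receptor limit. Crabp1, a retinoic acid binding protein chosen after its values were seen, had the smallest paired p of the list. It read 41123.7, 20185.3, 19443.4 and 20515.4 in knockout replicates 1 to 4, against 52485.5, 32609.5, 26140.3 and 29099.3 in controls. Each knockout array was below its same-numbered control, and the groups overlapped (log2 difference -0.49, SE 0.25 unpaired and 0.08 paired, limma adjusted p = 0.999, paired adjusted p = 0.0565).

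Of other positional regulators of mesenchyme 30 of 43 were tested, 17 were above 0, the median was 0.01 and 0 passed in either fit. Gata6, a zinc finger factor of heart and gut mesoderm, read 3477.6, 2524.2, 3412 and 2453.9 in knockout replicates 1 to 4, against 3688.8, 5014, 5055.1 and 3560.2 in controls. All knockout arrays were below all controls (log2 difference -0.53, SE 0.17, limma adjusted p = 0.999; paired adjusted p = 0.175). Msx1, a homeobox gene of limb and face mesenchyme, gave 0.91 (SE 0.37, limma adjusted p = 0.999) at a mean of 391 in knockout and 196 in control cells. Both means were under the olfactory receptor limit, and control replicate 4 read 48.2. Tbx15, a marker of subcutaneous against visceral fat, averaged 5086 ± 98.7 in knockout and 4754 ± 199 in control cells (SD, n = 4 each; log2 difference 0.10, SE 0.10).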

How the data were processed

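The deposited values are linear array intensity (MAS5 signal) per probe set, made by the authors with GCOS 1.3 and MAS5 per the submitters' processing notes. All 8 arrays share a 2% trimmed mean of 1500, which shows that the authors had scaled them. Other upstream steps are not given in the sources used here. Depth has no meaning for arrays, and the number of arrays limits the precision. Signals were taken as log2(signal + 73.1), the 20th percentile of all values, which understates fold changes of dim probe sets. Without the 64 array controls, the brightest 60% of probe sets (mean log2 value) were tested. Symbols come from GEO's platform annotation (1 symbol for 34945, several for 932, none for 9160). Differences, intervals and two-sided p-values are from limma 3.58.1 (lmFit, then eBayes with a trend; R 4.3.3), with the Benjamini-Hochberg method applied to every tested probe set and 0.05 as the threshold. The procedure was tested on simulated data. Python 3.11.15 and matplotlib 3.10.9 made the plots. Deviations from the group means correlated at 0.342, 0.189, 0.199 and 0.373 between same-numbered arrays, all above 0.1, so same-numbered samples were treated as pairs. A replicate block gives the paired fit. Each array correlated most with its own number, but differently numbered arrays also passed 0.1, up to 0.149 for knockout 4 with control 2. Over the Hox probe sets alone the same-numbered correlations were 0.669, -0.247, -0.054 and 0.569. There knockout replicates 2 and 3 correlated more with control replicate 4 (0.382 and 0.408) than with their own number. Genes named with values were, by rule, the 4 highest control signals of each cluster, the 8 smallest unpaired and 4 smallest paired p-values, tested microRNA targets and the 4 largest SDs, and the 2 smallest p-values of each other list. Others were chosen after their values were seen. These were Tbx15, Dlk1, Ngfr, Sox10, Crabp1, Pdgfra, Hoxa11, the markers named as above the limit and the genes named as below it. The members and lists were chosen with earlier results of these data known. The array annotation names no genome build, so gene positions are left out; microRNA and promoter sequences are from RefSeq tables on GRCm38.p6. Alternatives covered the pseudocount, filter, normalization, trend, array weights, the replicate block, and leaving out arrays or pairs.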

Additional observations from a re-analysis of the deposited data

How the results depend on the processing

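The count of Hox probe sets called was 0 under all alternatives run. The replicate block gave 13 calls over all probe sets, against 1 without it, and changed no Hox call. Without pair 1 the blocked fit gave 80, without pair 2 it gave 1, without pair 3 it gave 0 and without pair 4 it gave 2. The unpaired count over all probe sets was 0 when no low values were filtered, after median centring, without the mean-variance trend and within the odd-numbered or the even-numbered replicates, and 0 to 2 with a single array left out. The median Hox log2 difference of 0.0460 lay between -0.00284 and 0.0949 over its alternatives, moving less than the SD of 0.115 between pair medians. Between 14 and 18 Hox genes were above the olfactory receptor limit. The share of Hox variance held by the replicate number was 41.4% to 61.2% with one pair left out. Over all tested probe sets it was 49.4% and 56.2% in those 2 settings. The Hox genes with replicates 1 and 4 at opposite ends, an item added after the values were seen, numbered 9, or 5 after median centring; the cause was not tested. Hoxb6 changed sign, at 0.152 in the odd-numbered replicates and 0.0687 in the blocked fit without pair 2, and ran from -0.212 to 0.0366 with one array left out. Hoxd8 was -0.0740 in the even-numbered replicates and -0.00749 in the blocked fit without pair 1. Hoxb3 ran from -0.334 to 0.0680 with one array left out. Neither group's dim Hox genes can be ordered by signal.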
